A study of Mus musculus with 24 samples.

Results

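The step described here is that from 28 to 56 days of age in the extraocular muscles of the mdx mouse. The mdx mouse lacks dystrophin in its muscle fibres through a mutation of Dmd and is widely used to model Duchenne muscular dystrophy. The members were chosen by their titles alone: the 3 arrays of mdx eye muscle at 56 days were set against the 3 arrays of mdx eye muscle at 28 days, 6 of the 24 arrays of the series, with no use of measured values. The 3 control arrays at 28 days and the 3 at 56 days, which the series title calls wild type, served as background for the same ages. The other groups of the series, at 14 and 112 days, entered the fit and are given only beside single genes. The labels name no strain, no sex and no treatment, and they do not say whether an array holds 1 animal or a pool. The p-values below therefore measure the spread between arrays, which may be technical, and a strain difference between mdx and control mice cannot be told apart from the mutation.

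Extraocular muscles move the eye and are largely spared in Duchenne dystrophy, while limb muscles of the mdx mouse pass through degeneration and regeneration in the weeks after weaning. Dystrophin links the cytoskeleton of the fibre through a membrane complex to laminin in the basement membrane, and the matrix around the fibres is built of fibrillar collagens (types I, III and V), the microfibrillar collagen VI and basement membrane collagen IV. Growing muscle makes much of this matrix, and matrix transcripts normally decline as growth slows.

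Intensities are on a linear scale on which the trimmed mean of each array is 500, and fold changes are log2 differences of intensity plus 16, with their standard error (SE). Calls are those of limma with Benjamini-Hochberg adjustment at an adjusted p under 0.05 over 7453 probe sets. The tissue label was set against muscle markers: Ckm, the muscle creatine kinase, lay between 6619 and 10360 on the 6 mdx arrays and Tnnt3, the fast troponin T, between 12100 and 19530. Acta1, another muscle marker, lay between 1430 and 11380. The macrophage marker Adgre1 lay between 42.8 and 159, the T cell marker Cd3e between 21.6 and 66.3 and the retinal gene Sag between 7.6 and 50.6. Other macrophage markers were brighter, Csf1r between 624 and 982 and Cd68 between 284 and 550. The B cell marker Cd79a lay between 287 and 451. The mean correlation of an mdx array of these ages with all other arrays was 0.932 to 0.947. Control 56-day replicate 2, at 0.865, and control 112-day replicate 1, at 0.908, stood apart. They do not enter the fold change of the mdx step, but they widen the spread that all groups share.

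Few genes were called between 28 and 56 days in mdx eye muscle, and 5 of the 13 that fell were matrix genes. Of 7453 probe sets, 4 were called higher at 56 days (0.0537%) and 13 lower (0.174%). At an unadjusted p under 0.05 there were 335 higher and 353 lower, and the median log2 fold change of all probe sets was -0.02. The genes that fell were Col3a1, Col5a1, Col5a2, Col6a3, Sparc, Ppic, Nrep, Kdelr3, Meg3, Socs2, Angptl4, Cd70 and 2210016L21Rik. The genes that rose were Dmwd, Gpx3 and Sox18, and the remaining rising probe set is annotated to several genes and is not named. When the 2 arrays that stood apart were left out, the fold changes stayed as they were and 84 probe sets were called, 22 higher and 62 lower, with all 17 among them. Leaving out a single mdx array changed the count of 17. Among the younger arrays, the count was 3 without replicate 1, 7 without replicate 2 and 3 without replicate 3. Among the older arrays, it was 4 when replicate 1 was dropped, 20 when replicate 2 was dropped and 5 when replicate 3 was dropped. Dmwd, Col3a1 and Col5a1 were called in each of these 6 fits.

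**Figure D1:**
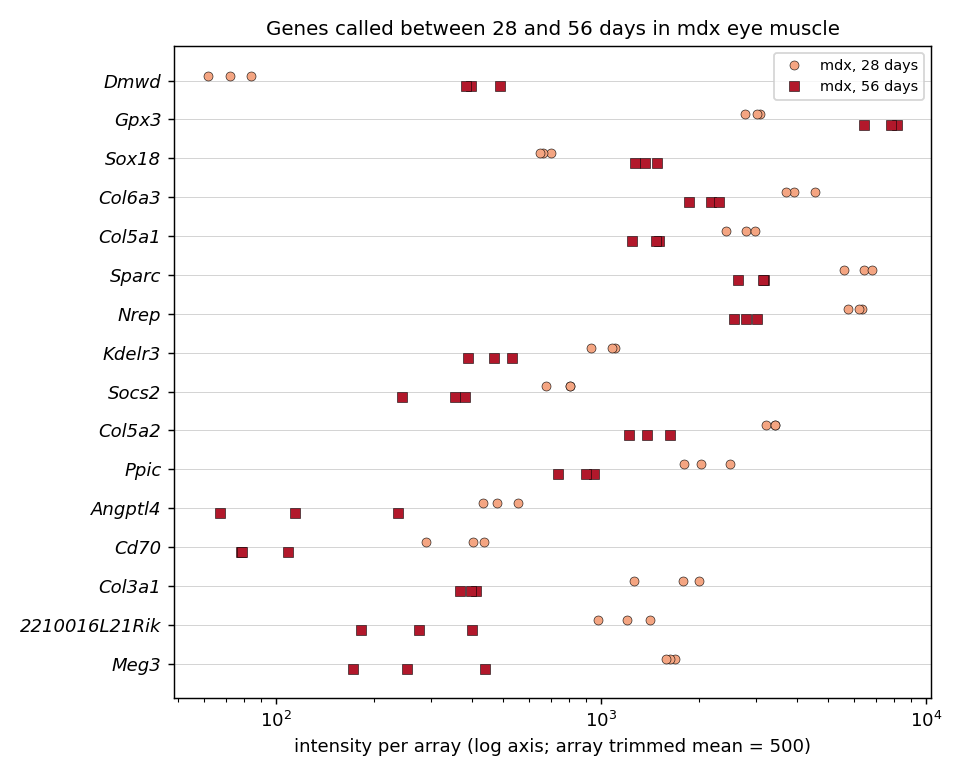
Intensity of the 16 named genes called between 28 and 56 days, 1 point per mdx array (circles, 28 days; squares, 56 days; log axis). In every gene the 3 arrays of one age lie apart from the 3 of the other, which the rule for naming genes required. Dmwd rises from between 62.0 and 84.0 to between 384 and 491, and Meg3 falls from between 1589 and 1691 to between 173 and 438.

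Among the fibrillar collagens, Col3a1, which forms the type III fibrils of young and pliable tissue, fell most. Its intensity was 1789, 1263 and 1998 on the 28-day mdx arrays and 412, 399 and 369 on the 56-day arrays. All 3 older arrays lay far below the 3 younger ones, a fall of 2.03 ± 0.29 on the log2 scale (SE, limma adjusted p = 0.00146). Its 2 other probe sets were lower as well, at -1.60 ± 0.38 (adjusted p = 0.1) and -1.09 ± 0.28 (adjusted p = 0.127), and neither passed the test. Col5a1 and Col5a2 encode the chains of type V collagen, which sits inside the type I fibrils and sets their width. Col5a1 measured 2803, 2429 and 2988 at 28 days and 1511, 1477 and 1246 at 56 days. It fell by 0.95 ± 0.14 (adjusted p = 0.00146). Its other probe set gave -0.85 ± 0.24 (adjusted p = 0.179). Col5a2 measured 3428, 3221 and 3421 at 28 days and 1388, 1627 and 1220 at 56 days. It fell by 1.25 ± 0.23 (adjusted p = 0.013).

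Col6a3, the largest chain of collagen VI, whose loss causes a muscular dystrophy of its own in people, measured 4571, 3919 and 3698 at 28 days and 2184, 2312 and 1867 at 56 days. The gene fell by 0.93 ± 0.18 (adjusted p = 0.0201). The partner chains had like values without passing: Col6a2 stood at -0.91 ± 0.20 (adjusted p = 0.0566) and Col6a1 at -0.97 ± 0.27 and -0.86 ± 0.25 in its 2 probe sets. Sparc, a secreted protein that binds collagen and guides its deposition, measured 6460, 5584 and 6848 at 28 days and 2648, 3184 and 3146 at 56 days, a fall of 1.07 ± 0.19 (adjusted p = 0.0128). The calls of Col5a2, Col6a3 and Sparc each ended in 4 or 5 of the 22 alternative fits (highest adjusted p 0.115, 0.162 and 0.103), while those of Col3a1 and Col5a1 held in all 22.

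The collagen family as a whole was lower at 56 days. Of 29 probe sets for 23 collagen genes, 26 were lower and 3 higher, with a median log2 fold change of -0.67, and 21 had all 3 older arrays below all 3 younger ones, against 11.5% of all probe sets. Only the 4 probe sets above were called. The main chains of type I collagen were lower without passing: Col1a2 stood at -0.91 ± 0.22 (adjusted p = 0.1) and -0.48 ± 0.27 (0.614) in its 2 probe sets, and Col1a1 at -0.57 ± 0.38 and -0.49 ± 0.21. The basement membrane chains Col4a1 and Col4a2 stood at -0.89 ± 0.25 and -0.67 ± 0.16. Col7a1, Col9a1 and Col19a1 had the 3 values above 0 and none above 0.20. The other chains of collagen IX, Col9a2 and Col9a3, lay the other way, at -0.62 ± 0.29 and -0.46 ± 0.31.

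In a wider list of 49 matrix genes, 44 were lower and 5 higher, 4 were called, all lower (Col5a1, Col5a2, Col6a3 and Sparc), and the median was -0.60 beside -0.02 for all probe sets. Col3a1 is represented there by its brightest probe set, which did not pass. The largest fall by value in the list was that of Postn, a matricellular protein of growing and injured tissue, at -1.51 ± 0.45 (adjusted p = 0.196). Timp2, an inhibitor of the matrix metalloproteinases, had the highest value, 0.67 (adjusted p = 0.511). Without the 2 arrays that stood apart, 15 of the 49 were called, all lower. The mean log2 level of the 49 genes was 10.64, 10.54 and 10.73 on the 28-day mdx arrays and 10.01, 10.17 and 10.05 on the 56-day arrays. In bulk tissue fewer cells of a type and less RNA per cell cannot be told apart.

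Ppic, Kdelr3 and Nrep also fell. Ppic, a prolyl isomerase of the cyclophilin family that resides in the secretory pathway, fell from 2030, 1803 and 2503 to 737, 952 and 897 (-1.27 ± 0.21, adjusted p = 0.00939). Kdelr3, a receptor that returns chaperones to the endoplasmic reticulum, fell from 1108, 934 and 1082 to 389, 468 and 534 (-1.15 ± 0.21, adjusted p = 0.0128). Nrep, a small protein found in regenerating nerve and in wound fibroblasts, fell from 6338, 5778 and 6242 to 3027, 2788 and 2569 (-1.13 ± 0.19, adjusted p = 0.00939). In each of these genes the lowest 28-day array lay above the highest 56-day array. The rule for naming genes required this, and 11.5% of all probe sets met it in that direction. Each call was lost in 3 of 22 alternative fits.

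These 5 matrix genes, Kdelr3 and Nrep also fell in control muscle. Col3a1 changed there by -1.32 ± 0.29 (limma adjusted p = 0.0174), Col5a1 by -0.70 (0.0105), Col5a2 by -1.16 (0.0105), Col6a3 by -0.86 (0.014), Sparc by -0.63 (0.0489), Kdelr3 by -1.04 (0.011) and Nrep by -1.08 (0.00951). Ppic stood at -0.49 in control muscle (0.144). Over the 49 matrix genes the control median was -0.59, with 45 lower, and the median difference between the steps was -0.02. Of the 49, 19 were called lower in control muscle, against 3.43% of all probe sets. The control calls rest on single arrays, as given below. Of the 13 probe sets called lower in mdx muscle, 13 were also lower in control muscle. Of all probe sets, 63.9% had the same sign in both steps. The same 13 were still lower in mdx muscle at 112 than at 28 days, 10 of them past the test. That test called 37 of 7453 probe sets in either direction. It shares with the step described the 28-day arrays, on which these 13 were high by their choice. From 56 to 112 days, with the 56-day arrays shared, 7 of the 13 were lower again and 6 were higher.

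**Figure D2:**
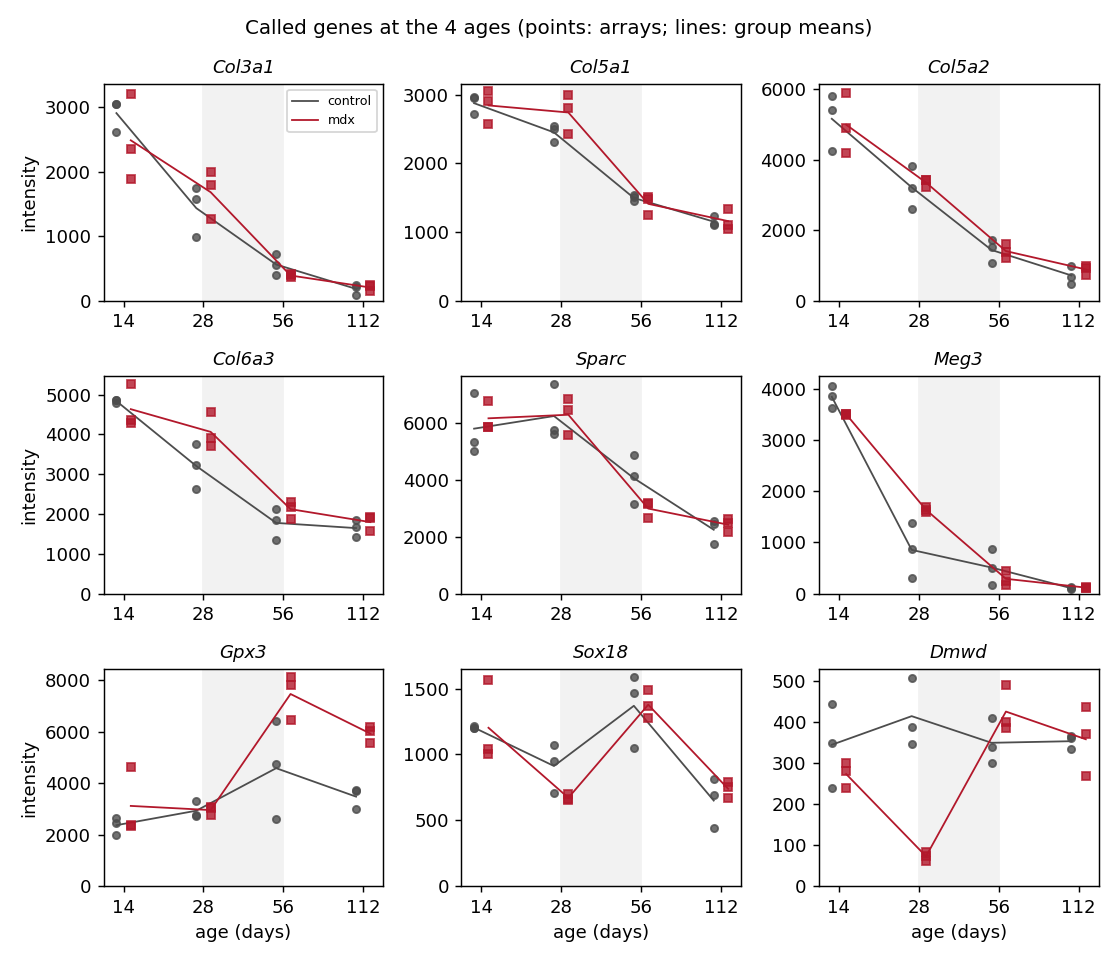
Intensity of 9 called genes at 14, 28, 56 and 112 days in control (circles) and mdx (squares) eye muscle, 1 point per array, with lines through the group means and the step from 28 to 56 days shaded. The collagens, Sparc and Meg3 fall across the shaded step in both genotypes by their means, whereas Dmwd is low on the 3 mdx arrays of 28 days alone.

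Stretches upstream of 4 genes are shown because the values of their lists lay in opposite directions: a pair of called collagens, and a pair of interferon-responsive genes that did not pass the test. Each runs 5′ to 3′ up to the base before the annotated start, from RefSeq on GRCm38.p6. They are chr1:45311388-45311537 (plus strand) for Col3a1, chr2:27886275-27886424 (plus) for Col5a1, chr19:34583329-34583528 (plus) for Ifit3 and chr2:122147487-122147686 (plus) for B2m. Capitals mark 4 motifs searched on both strands. They are the TATA box, searched as TATAAA, the CCAAT box, searched by its name, the GC box, searched as GGGCGG, and the core of the interferon-stimulated response element (ISRE), searched as GAAA, any pair of bases, then GAAA. A match on the other strand appears as its reverse complement. The 150 bases before the start of Col6a3 and of Sparc, which were also called, held none of the 4 motifs and are not shown.
Col3a1: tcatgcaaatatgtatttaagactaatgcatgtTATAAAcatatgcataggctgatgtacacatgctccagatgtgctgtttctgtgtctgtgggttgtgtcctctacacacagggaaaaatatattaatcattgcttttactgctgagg
Col5a1: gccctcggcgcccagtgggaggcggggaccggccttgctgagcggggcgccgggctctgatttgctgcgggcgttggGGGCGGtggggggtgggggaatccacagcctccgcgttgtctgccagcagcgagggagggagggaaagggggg
Ifit3: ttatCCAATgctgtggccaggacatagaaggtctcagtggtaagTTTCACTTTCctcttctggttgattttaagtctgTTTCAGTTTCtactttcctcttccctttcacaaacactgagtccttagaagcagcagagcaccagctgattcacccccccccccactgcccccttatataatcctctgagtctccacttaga
B2m: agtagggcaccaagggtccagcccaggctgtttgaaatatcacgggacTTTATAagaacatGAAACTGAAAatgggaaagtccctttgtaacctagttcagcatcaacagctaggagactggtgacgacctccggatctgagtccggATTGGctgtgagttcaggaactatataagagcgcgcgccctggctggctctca
Over the 250 bases before the start, the ISRE core occurred in 8 of 27 genes of the interferon list with an entry (29.6%), in 2 of 36 matrix genes (5.56%) and in 3.46% of all genes in the table. GGGCGG occurred in 24 of the 36 matrix genes (66.7%), in 9 of the 27 interferon genes (33.3%) and in 35.4% of all genes. TATAAA was held by 16.7%, 22.2% and 14.3% of the 3 sets in that order, and CCAAT by 38.9%, 51.9% and 37.5%. These matches describe letters only and say nothing of binding in these muscles.

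Interferon-responsive and antigen-presenting genes had values in the other direction, without a call. Of 35 tested genes 31 were higher and 4 lower at 56 days, with a median of 0.46, and 13 had all 3 older arrays above all 3 younger ones, against 9.79% of all probe sets. Plac8, expressed in white blood cells and placed in the list with the interferon genes, had the smallest p: it measured 436, 545 and 378 at 28 days and 1204, 821 and 1044 at 56 days (1.15 ± 0.25, limma adjusted p = 0.0572), and it passed in 6 of 22 alternative fits. Iigp1, a GTPase that interferon gamma induces, measured 272, 276 and 239 and then 1403, 487 and 1111 (1.74 ± 0.48, adjusted p = 0.172), with 1.52 ± 0.38 (adjusted p = 0.127) in its other probe set. Ifit3, an antiviral protein and classic target of type I interferon, measured 198, 171 and 142 and then 754, 243 and 815 (1.57 ± 0.44, adjusted p = 0.177). In both, 56-day replicate 2 was the lowest of the older arrays and still above every younger one. B2m, the light chain of class I molecules, measured 2720, 1654 and 3823 and then 6859, 3893 and 5060 (0.99 ± 0.29, adjusted p = 0.184), and there the ages nearly met. Without the 2 arrays that stood apart, Plac8 and Gbp2 of this list were called by the probe sets that stand for them. The second Iigp1 probe set given above was called there too (1.52, limma adjusted p = 0.0487). That fit called 22 of all probe sets higher.

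In control muscle the median of the same 35 genes was 0.10, with 22 higher and 13 lower. Plac8 stood at 0.10, Ifit3 at 0.11 and Iigp1 at 1.52 and -0.18 in its 2 probe sets, while B2m stood at 0.94. The difference between the genotypes was not past the test for any of these: for Plac8 it was 1.04 (adjusted p = 0.497), for Ifit3 1.46 (0.528) and for Iigp1 0.23 (0.935) and 1.70 (0.497). The mean log2 level of the list was 9.09, 8.99 and 9.13 on the mdx arrays of 28 days and 9.89, 9.22 and 9.66 on those of 56 days. On the control arrays it stayed between 8.78 and 8.92 at 28 days and between 8.90 and 8.99 at 56 days. The summed intensity of 37 macrophage markers overlapped between the mdx ages, at 15426 to 17057 and 15224 to 18384. That of 23 lymphocyte markers overlapped as well, at 3281 to 4515 and 2760 to 3312. The T cell marker Cd3e and the leucocyte marker Ptprc were under 90 on all 6 arrays. Brighter on the same arrays were Csf1r (624 to 982) and Cd68 (284 to 550) of macrophages and Cd79a (287 to 451) of B cells.

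**Figure D3:**
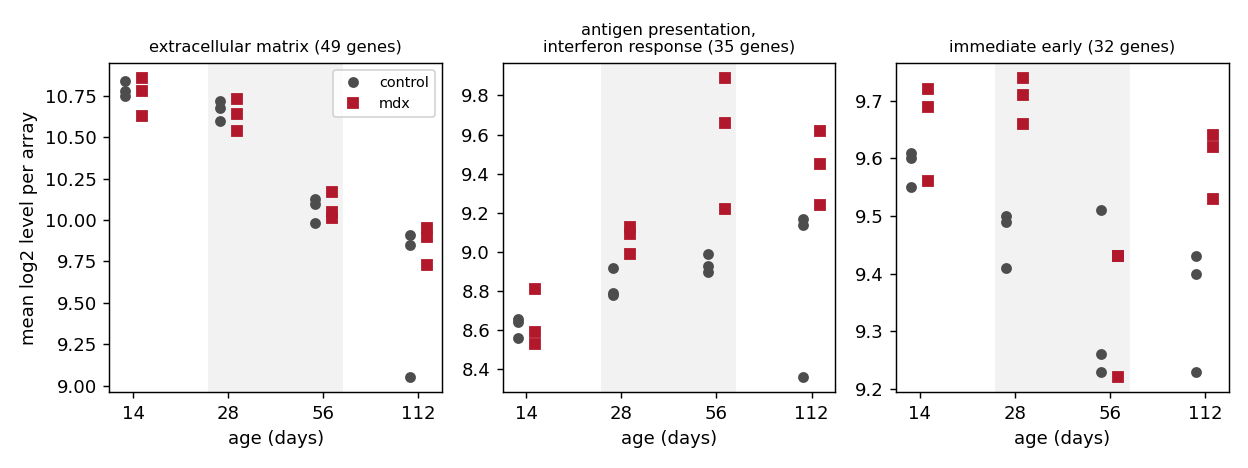
Mean log2 level of 3 gene lists on each array at the 4 ages (circles, control; squares, mdx; shaded, 28 to 56 days; the vertical axes do not start at 0). Matrix genes fall from between 10.54 and 10.73 to between 10.01 and 10.17 in mdx muscle, interferon genes go from between 8.99 and 9.13 to between 9.22 and 9.89, and immediate early genes from between 9.66 and 9.74 to between 9.22 and 9.43.

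Immediate early genes, the transcription factors and phosphatases that cells switch on within minutes of a stimulus, were mostly lower at 56 days. Of 32 tested, 26 were lower and 6 higher, none was called, the median was -0.33, and 15 had all 3 older arrays below the younger ones, against 11.5% of all probe sets. Fos, a subunit of AP-1, measured 885, 647 and 674 at 28 days and 167, 351 and 214 at 56 days (-1.58 ± 0.34, limma adjusted p = 0.0557), and it passed in 6 of 22 alternative fits. Dusp1, a phosphatase that shuts off MAP kinases, stood at -0.93 ± 0.25 (0.148), Cebpd at -0.82 ± 0.22 (0.165) and Btg2, an antiproliferative gene, at -0.68 ± 0.18 (0.156). In control muscle the list median was -0.14, and Fos and Dusp1 stood at -0.24 and 0.05. The difference between genotypes was -1.34 for Fos (adjusted p = 0.497) and -0.97 for Dusp1 (0.497), neither past the test.

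Among growth genes, Meg3, an imprinted noncoding RNA that is abundant in immature muscle, fell most of all called genes. It measured 1691, 1629 and 1589 at 28 days and 173, 438 and 253 at 56 days, a fall of 2.54 ± 0.45 (limma adjusted p = 0.0128). Its other probe set stood at -0.57 ± 0.17 (0.22), and the 2 probe sets thus gave very different sizes. Socs2, which damps growth hormone signalling, fell from 676, 805 and 805 to 244, 381 and 357 (-1.20 ± 0.24, adjusted p = 0.0328). The call of Meg3 was lost in 5 and that of Socs2 in 6 of 22 alternative fits (highest adjusted p 0.103 and 0.238). The imprinted genes Cdkn1c, an inhibitor of the cell cycle, and Mest stood at -0.76 ± 0.21 (0.177) and -1.02 ± 0.33 (0.243). Of 24 tested imprinted and growth genes, 19 were lower, 1 was called (Meg3) and the median was -0.30. Of 26 proliferation genes 21 were lower, none was called and the median was -0.25, beside -0.28 in control muscle.

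The remaining genes that fell have no common role. Angptl4, a secreted inhibitor of lipoprotein lipase, fell from 480, 434 and 554 to 115, 238 and 67.1 (-1.84 ± 0.38, limma adjusted p = 0.0394), while its other probe sets stood at -1.34 ± 0.38 (0.181) and -0.38 ± 0.25 (0.663). Cd70, a ligand of the tumour necrosis factor family known from activated lymphocytes, fell from 291, 438 and 403 to 109, 78.1 and 78.9 (-1.90 ± 0.40, adjusted p = 0.041). The gene 2210016L21Rik fell from 1200, 981 and 1420 to 401, 182 and 276 (-2.06 ± 0.41, adjusted p = 0.0328). The 3 calls were lost in 7 of 21, 8 of 21 and 7 of 22 alternative fits.

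Of the genes that rose, Gpx3, the secreted glutathione peroxidase that removes peroxides, measured 3078, 3029 and 2775 at 28 days and 8137, 6464 and 7819 at 56 days. Every older array lay far above every younger one, and the rise was 1.33 ± 0.26 (limma adjusted p = 0.0293), a call that was lost in 5 of 22 alternative fits (highest adjusted p 0.16). Control muscle stood at 0.55 (0.173). Gpx3 was the only call among 36 antioxidant and heat shock genes, 24 of which were higher with a median of 0.09. That median was 0.05 without mdx 28-day replicate 2 and 0.22 without mdx 28-day replicate 3. Hspa1b, an inducible heat shock protein, stood at 0.92 ± 0.24 (0.148).

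Sox18, a transcription factor of blood and lymph vessel endothelium, measured 700, 663 and 651 at 28 days and 1490, 1275 and 1368 at 56 days (1.02 ± 0.21, adjusted p = 0.0435). Its other probe set stood at 0.80 ± 0.18 (0.0832), and the call was lost in 11 of 22 alternative fits. Of 25 markers of endothelium and vessel wall 19 were lower and 6 higher, none was called, and the median was -0.23. Cldn5, the tight junction claudin of vessels, stood at -1.06 ± 0.27 (0.127) and Cdh5, the endothelial cadherin, at -0.61 ± 0.22 (0.33). The summed intensity of 28 such markers was 28791 to 31897 at 28 days and 24471 to 27625 at 56 days.

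Dmwd, a WD-repeat gene next to Dmpk, was the most firmly called gene of the step. It was also the one gene called for a difference of the step between mdx and control muscle. On the mdx arrays it measured 84.0, 72.4 and 62.0 at 28 days and 400, 384 and 491 at 56 days, a rise of 2.31 ± 0.23 (limma adjusted p = 1.38e-05). On the control arrays it measured 388, 506 and 347 at 28 days and 410, 299 and 338 at 56 days, which overlap (-0.23, 0.549). The difference between the steps was 2.54 ± 0.33 (limma adjusted p = 0.000998), the only one called among 7453 probe sets (0.0134%). The count of called differences was 2 when control 28-day replicate 1 was dropped and 8 when control 56-day replicate 1 was dropped. The low values were those of the 28-day mdx arrays: the mdx mean was 72.8 ± 11 (SD, n = 3) there, beside 273 ± 30.5 in the 14-day group, 425 ± 57.5 in the 56-day group and 357 ± 84.9 in the 112-day group. The step from 14 to 28 days was -1.70 ± 0.23 (adjusted p = 0.00232), with the same 28-day arrays. Dmwd lies at chr7:19076112-19082778 and Dmpk, the myotonic dystrophy kinase gene, begins 867 bases beyond it. Dmpk, looked up after the values of Dmwd were seen, measured 4363, 5102 and 2742 at 28 days and 7377, 5610 and 8098 at 56 days in mdx muscle (0.82 ± 0.28, 0.281).

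Genes next below the threshold among those that rose were Pla2g12a, a secreted phospholipase, at 1.25 ± 0.27 (limma adjusted p = 0.0588), Retreg1, a receptor for autophagy of the endoplasmic reticulum, at 0.77 ± 0.19 (0.127), and Esrra, an orphan nuclear receptor that drives oxidative metabolism, at 0.73 ± 0.18 (0.127). The other probe sets of Pla2g12a and Esrra stood at 0.17 and 0.08. Pla2g12a and Retreg1 rose in control muscle, by 1.92 (0.00134) and 0.71 (0.0327).

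Metabolic lists were shifted slightly upward by value. Of 58 oxidative phosphorylation genes 45 were higher and none was called, with a median of 0.17, which was 0.05 under quantile normalization, and in control muscle the median was -0.36. Of 28 genes of glycolysis and glycogen 19 were higher and none was called, with a median of 0.23. In that list Slc2a4, the insulin-responsive glucose transporter, stood at 0.84 ± 0.23 (limma adjusted p = 0.165) and Gys1, the muscle glycogen synthase, at 0.76 ± 0.22 (0.181). Psme3, a proteasome activator, stood at 1.12 ± 0.29 (0.133), and Ache, the acetylcholinesterase of the junction between nerve and muscle, at 1.06 ± 0.32 (0.215). None of these 4 passed. They were picked by the smallest p of their lists. All had every 56-day array above every 28-day array, which that choice favours and which is no further support.

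Dystrophin, its relative utrophin and the myosin heavy chains did not pass the test. Dmd measured 123, 94.8 and 128 at 28 days and 104, 143 and 137 at 56 days in mdx muscle (0.13 ± 0.28, limma adjusted p = 0.916). In control muscle it rose from 199, 221 and 235 to 357, 568 and 717 (1.22, 0.0204), and the difference between the steps, -1.08, was not past the test (0.497). Utrn stood at 0.12 ± 0.50 and 0.56 ± 0.54 in its 2 probe sets. Lama2, the laminin chain to which the dystrophin complex binds, stood at -0.66 ± 0.16 (0.1), with 1309, 1236 and 1202 at 28 days and 766, 811 and 784 at 56 days, and it was called without the 2 arrays that stood apart.

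The fast myosins Myh1 and Myh4 stood at 0.12 ± 0.35 and at 0.09 ± 0.73 and -0.70 ± 0.27. Myh1 and the first Myh4 value turned below 0 under quantile normalization (both -0.06). The embryonic Myh3 stood at -0.02 ± 0.94, the neonatal Myh8 at -0.09 ± 0.50 and Myh6 at -0.50 ± 0.52. Myh14, at 0.45 ± 0.18, encodes a nonmuscle myosin but is counted in the slow and cardiac list. For Myh7, the slow myosin, a dim probe set went from 96.3, 56.6 and 80.2 to 348, 206 and 184 (1.46 ± 0.40, limma adjusted p = 0.168), while a bright one stood at 0.12 ± 0.19. Myl4, the embryonic light chain, stood at 0.05 ± 0.23 and -0.52 ± 0.27. Of 28 genes of myogenic regeneration 12 were higher and 16 lower, none was called and the median was -0.04, between -0.09 and 0.03 over the alternatives. Of 15 slow and cardiac isoform genes 12 were higher with a median of 0.29, which was 0.16 under quantile normalization and 0.13 without mdx 56-day replicate 1, and Atp2a2, the slow calcium pump, stood at 0.93 ± 0.27 (0.181). Of 21 fast isoform genes 12 were higher with a median of 0.07, which turned to -0.07 with the largest signal of an array as a covariate.

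**Figure D4:**
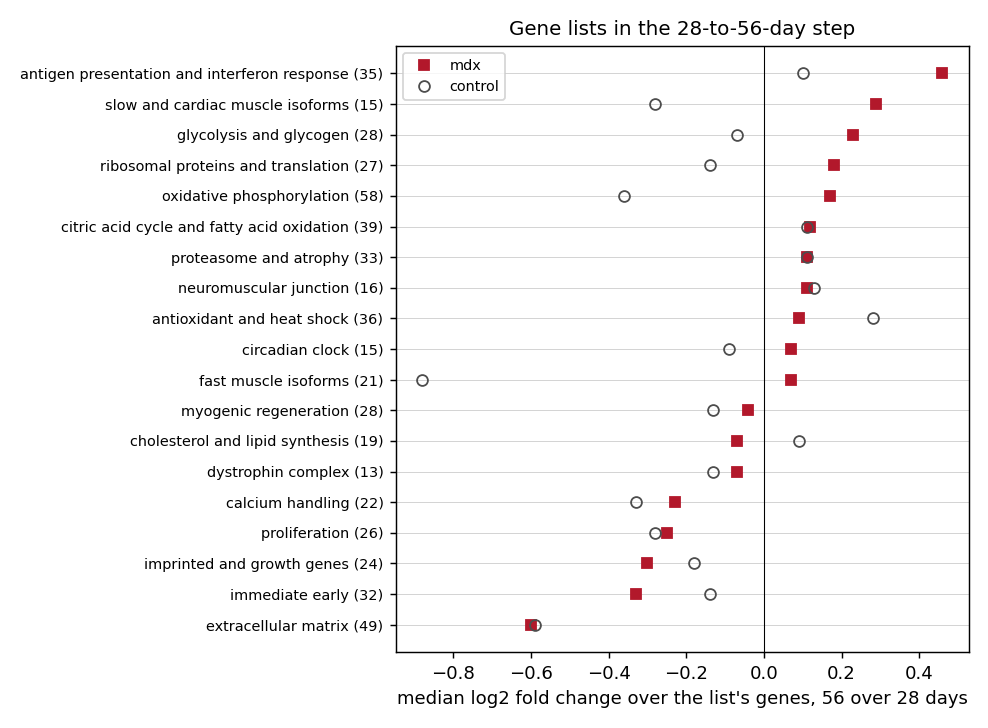
Median log2 fold change from 28 to 56 days over the tested genes of each list (number in brackets) in mdx (filled squares) and control muscle (open circles). The matrix list has the lowest mdx median, -0.60, beside a control median of -0.59; the interferon list has the highest, 0.46, beside 0.10.

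Across all probe sets the mdx and control steps, which share no array, correlated with r = 0.358 and rho = 0.379 over 7453 probe sets, which are not independent replicates. In control muscle 242 probe sets were called higher (3.25%) and 256 lower (3.43%). Of the 17 mdx calls 7 were also called in control muscle with the same sign, which is 41.2% of the mdx calls and 1.41% of the control calls. The control calls had a median log2 fold change of 0.90 where higher and -1.09 where lower. The same probe sets had medians of 0.26 and -0.28 in mdx muscle, with the same sign in 84.1%, against 63.9% of all probe sets. These are values of sets chosen in control muscle, and the larger number of control calls is no test of a difference: that test called Dmwd alone, with 673 probe sets at an unadjusted p under 0.05. The control count also rests on single arrays, since dropping control 28-day replicate 2 left 24 calls and dropping replicate 3 of that age left 292. Dropping control 56-day replicate 2 left 193 and dropping replicate 3 of that age left 132. The count was 0 when only the 6 control arrays were fitted.

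**Figure D5:**
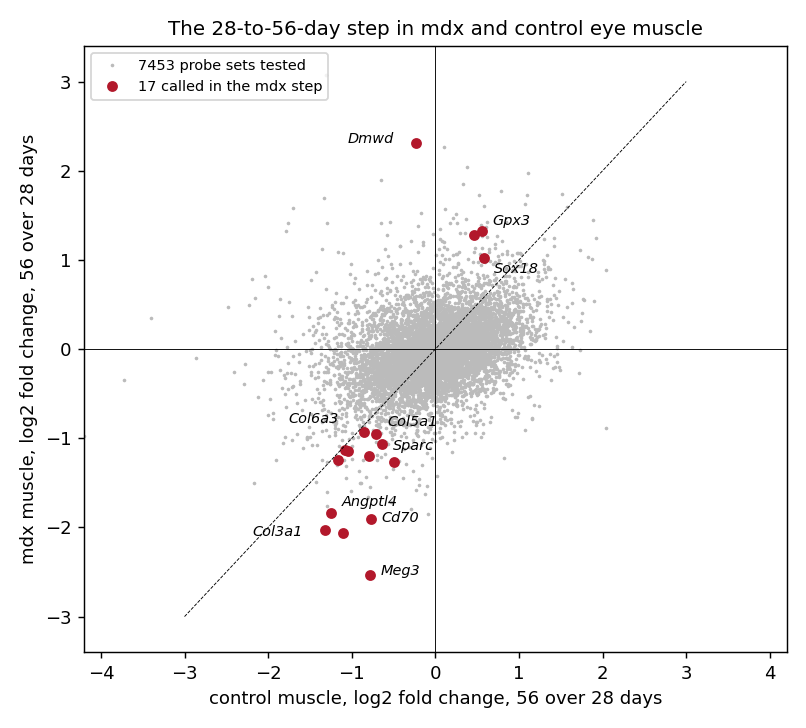
Log2 fold change from 28 to 56 days in control (horizontal) and mdx muscle (vertical) for 7453 probe sets (grey), with the 17 called in mdx muscle in red; the dashed line marks equal steps. The 13 that fell lie in the lower left, 3 that rose lie in the upper right, and Dmwd stands alone at 2.31 in mdx and -0.23 in control muscle.

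Values for RNA integrity and for other tissues at both ages are given here. The Gapdh 3′ over 5′ ratio, a measure of RNA integrity, was 0.258, 0.298 and 0.809 on the 28-day mdx arrays. On the 56-day arrays it was 0.434, 0.0517 and 0.0842. The ratio of beta actin was 1.02 to 1.91 and 1.02 to 1.24. Both ratios overlapped between the ages. Summed markers of lacrimal and Harderian glands, 15 genes, went from between 5161 and 5913 to between 6803 and 8340. Within that sum Bpifa2 alone went from between 1224 and 2361 to between 3186 and 4028, and the 5 tested members had a median of 0.15 with none called. Summed markers of the retina went from between 5079 and 5789 to between 4435 and 4694. The sum of 25 nerve and myelin markers went from between 19201 and 19357 to between 19714 and 21110. The 15 tested members lay the other way: 10 were lower, none was called, the median was -0.23, and their mean log2 level went from 9.62, 9.68 and 9.65 to 9.36, 9.48 and 9.54. The part of these in the results was not tested.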

How the data were processed

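The deposited values are linear intensities from Affymetrix arrays, which the authors processed by a standard protocol of the manufacturer, per the labels; the software and its settings were not known here. Each array had a common trimmed mean before deposit. Values under 1 were set to 1 (44 values), each array was scaled so that its mean, trimmed by 2% at both ends, was 500, then 16 was added and the log2 taken, which understates changes of dim probe sets. Of 12422 probe sets that are no manufacturer controls, 7453 were tested, those whose average over all arrays reached the 40th percentile (intensity 125.7); no detection calls were used. Symbols came from the platform annotation (10833 with 1 symbol, 396 with several, 1193 with none); 10817 matched a RefSeq gene table of GRCm38.p6, which gave the coordinates. Probe sets ending in _s_at or _f_at can share sequence with related genes.

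limma 3.58.1 in R 4.3.3 fitted 1 mean for each of 8 groups to all 24 arrays (16 residual degrees of freedom, variance trend on intensity); tests were two-sided with Benjamini-Hochberg adjustment within a contrast. The number of arrays, 3 a group, limits the precision. Replicate numbers did not pair arrays: deviations of same-numbered mdx arrays correlated at -0.156, -0.036 and -0.091.

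Named genes were up to 15 called in each direction by size of change, without overlap, with the next by p filling to 8, up to 10 called for the difference of steps, up to 4 of smallest p per list (not all are printed), and Dmd, Utrn, Myl4 and the myosin heavy chains; the collagen family was given whole. In a list the brightest probe set stands for a gene. The 31 lists, the members and the motifs were chosen with earlier results of these data known, so counts over lists are descriptions. Alternatives changed the offset (64), normalization, filter (none, 60th percentile), arrays fitted, replicate block, covariate and variance trend.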

Additional observations from a re-analysis of the deposited data

Results flagged for a closer look

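For Dmwd the change from 28 to 56 days differed between the genotypes by the test of the difference itself: mdx minus control was 2.54 on the log2 scale (limma adjusted p = 0.000998), with all 3 mdx arrays of 28 days under all other arrays of both ages and genotypes. The gene has 1 probe set on the array.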

How the results depend on the processing

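The mdx step called 17 probe sets. It called 75 (35 higher, 40 lower) with only the 6 arrays compared, 84 (22 and 62) when both outlying control arrays were dropped, and 52 (14 and 38) with only the 12 mdx arrays, a fit added after seeing that control groups spread more; without a filter 2 were called higher. Leaving out 1 array gave between 3 and 22 calls, 1 to 7 higher and 2 to 17 lower. With the replicate block, 17 were called in the mdx step, 481 in the control step and 1 for the difference. The difference of steps called 2 without a filter and 0 with the stricter filter, which drops Dmwd; leaving out 1 array gave 1 to 8. The control step called 498, 0 with only its 6 arrays, 0 with the largest signal as covariate, and 24 to 700 with 1 array left out. Each of the 17 mdx calls kept its sign in every alternative that tested it. The interferon list had 20 members higher with the stricter filter, which tests fewer genes. Values that changed sign were near 0: quantile normalization gave Myh1 -0.06, Myh4 -0.06 and Myh7 -0.01; the covariate gave Myh1 -0.05, Myh3 0.01 and Myh4 -0.03. With 1 array left out, the second probe set of Esrra ranged from -0.03 to 0.27, Myh1 from -0.03 to 0.24, Myh3 from -0.14 to 0.11, Myh4 from -0.02 to 0.18, Myh8 from -0.2 to 0.02, Myl4 from -0.23 to 0.29 and Utrn from -0.18 to 0.39. The cause was not tested. The design has 3 arrays a group, and dim probe sets limit what can be called.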

Other observations

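Clock genes had opposite values. Nr1d1, a repressor of the clock, measured 824, 1139 and 911 on the 28-day mdx arrays and 1265, 1650 and 1897 on the 56-day arrays (0.73, limma adjusted p = 0.18), while Per1 measured 420, 543 and 626 and then 241, 204 and 380 (-0.94, 0.23). Of 15 clock genes 8 were higher and 7 lower, and none was called. Hbb-b2, a haemoglobin gene of red cells, measured 5469, 4015 and 10560 and then 2733, 2015 and 1755 (-1.52, 0.249). Bpifa2, a secretory gene in the gland list, went from between 1224 and 2361 to between 3186 and 4028 in mdx muscle (1.15, 0.615), and in control muscle from between 841 and 1686 to between 3100 and 3806.

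The probe sets of Pvalb, the calcium buffer of fast fibres, gave opposite values: 1 measured 381, 787 and 2209 and then 10670, 6115 and 6515 (3.08, 0.378), the other 7119, 8134 and 7305 and then 3915, 4654 and 5175 (-0.72, 0.31).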
